A study of Drosophila melanogaster with 4 samples.

Results

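Su(Hw) regions of X chromosome euchromatin were taken as the enriched regions of the authors' combined list on X whose midpoint lay at least 2 Mb below the listed X length of 22422827 bp, outside the stretch from 240000 to 330000. This gave 1158 of the 5892 enriched regions of the list. Choice was by position alone, on FlyBase release 5 coordinates. Of the 1234 enriched X regions, 75 were left out next to the centromere and 1 in the excluded stretch. No list marked a depleted region on X.

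Su(Hw) is a zinc-finger DNA-binding protein that was found through the insulator of the gypsy retrotransposon, where it recruits Mod(mdg4) and CP190. Together these proteins can block an enhancer from acting on a promoter beyond the insulator, and Su(Hw) also binds many sites in the genome that hold no gypsy element. In flies the copy number of the X differs between the sexes, and its genes are dosage compensated in males. The sex of the embryos is not given in the labels.

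The series held 2 ChIP samples, made with the SU(HW)-HB antibody, and 2 input DNA samples, all from whole wild-type embryos (strain Oregon-R, Drosophila melanogaster, 14 to 16 h of age). The authors' lists give regions for each ChIP sample, and 1 further combined list covers both ChIP samples. Every region carries the authors' enrichment score, whose scale is not stated and was taken from its values to be log2. The sources used here do not give its zero point or say whether the lists share it, so X is set beside the arms within a list, and a difference in score between lists can include a shift of scale. No read counts were used, so depth is unknown, and intervals cover counting of regions only. Both ChIP samples belong to 1 group, and the labels do not say that they came from separate embryo collections. No test between conditions exists, and regions of a library are not replicates of each other. X is therefore set beside the 4 large autosomal arms, 2L, 2R, 3L and 3R, each without the 2 Mb next to its centromere, as a description without a test.

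The X regions were spread from 45042, where the first began, to 20415670, where the last ended, and covered 2767 kb, or 13.6% of the 20.3 Mb considered. They numbered 57.0 per Mb (95% exact Poisson interval 53.7 to 60.3), against 46.0 to 53.1 per Mb on the 4 autosomal arms. The replicate lists held 957 X regions in replicate 1 and 897 in replicate 2, by the same limits. X density was 47.1 per Mb in replicate 1 (interval 44.1 to 50.1), against 39.7 to 45.9 on the arms. In replicate 2 it was 44.1 per Mb (41.3 to 47.1), against 38.1 to 42.0. X was the densest of the 5 in each list, but its interval overlapped that of 3R in each (50.3 to 56.0 in the combined list). The arms also differed among themselves.

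At the edges of the rule, the last region inside the centromere-proximal limit lay at 20413606 to 20415670 with a combined score of 0.57. The first one outside lay at 20428068 to 20430052 with 0.38. The region in the excluded stretch, at 254274 to 257392, scored 3.04. Its neighbours among the X regions counted here lay at 172334 to 173986, with 0.27 and a partner in replicate 1 alone, and at 386638 to 390336, with 3.08.

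The higher density of X in the combined list was found at all scores below the strongest class. X held more regions per Mb than each of the 4 arms in every score class up to 3. Between scores of 0.5 and 1 it held 9.05 per Mb (184 regions), against 7.36 to 7.90 on the arms. Between 1 and 2 it held 15.0 (304 regions), against 12.3 to 14.3, and between 2 and 3 it held 9.98 (203 regions), against 7.50 to 9.65. Scores over 3 were held by 49 X regions, or 2.41 per Mb, which lay within the 1.81 to 2.48 of the arms. As a share of the regions, 4.23% of those on X scored over 3, against 4.45% of the whole combined list. The ratio of X to autosomal density ran from 1.12 to 1.19 over the 5 classes, and its 95% intervals reached below 1 in the classes over a score of 1. Over all scores the ratio was 1.14 (1.07 to 1.22), and it was 1.10 (1.02 to 1.18) in replicate 1 and 1.11 (1.03 to 1.19) in replicate 2. These intervals take regions as independent counts. The variance of counts per 100 kb exceeded their mean on X and each arm in all 3 lists, so the intervals can be too narrow.

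The weakest class went the other way in the replicate lists. Below a score of 0.5, X held 8.11 regions per Mb in replicate 1, against 9.00 to 10.7 on the arms, and 6.44 per Mb in replicate 2, against 6.92 to 7.60. The combined list gave 20.6 per Mb on X in this class (418 regions), against 15.9 to 20.5, so X was lowest in both replicate lists and highest, by a small margin over 2R, in the combined one. The X to autosomal ratio in this class was 0.812 (0.683 to 0.959) in replicate 1 and 0.899 (0.739 to 1.09) in replicate 2.

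**Figure D1:**
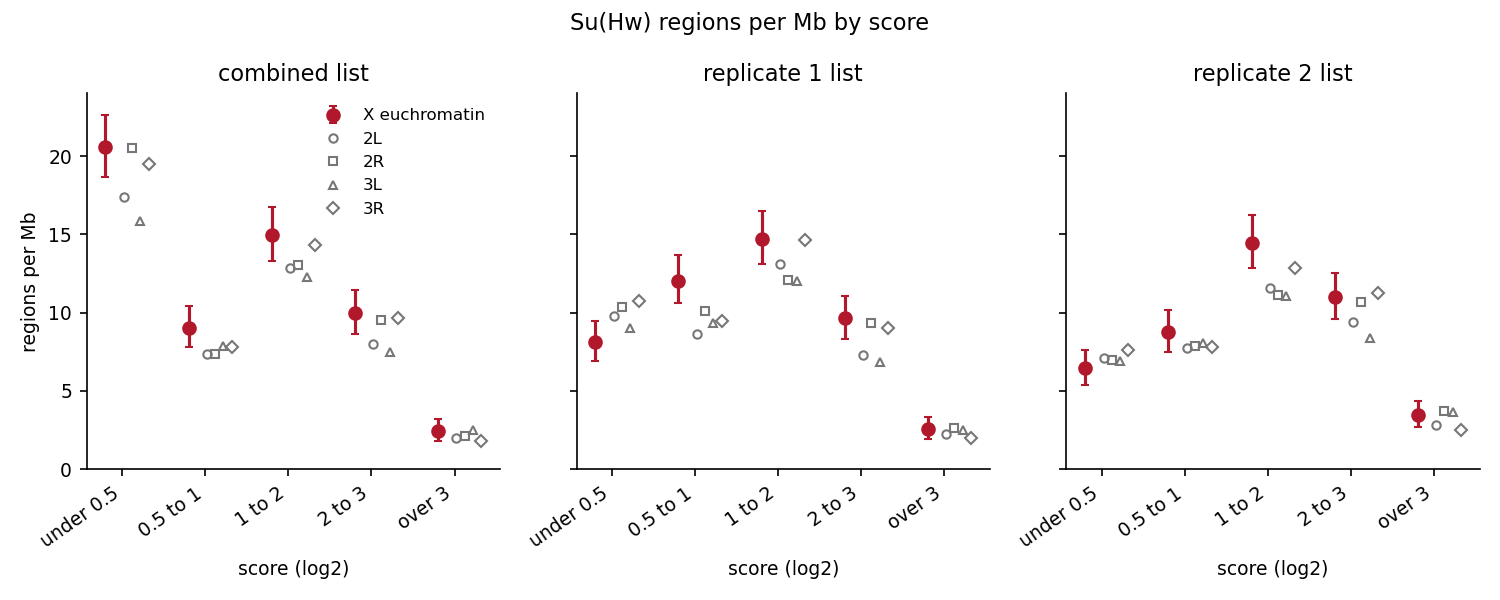
Su(Hw) regions per Mb by score class in the 3 lists, with X euchromatin as filled red points (bars are 95% exact Poisson intervals) and the 4 autosomal arms as open symbols. In the combined list X lies above the arms in each class up to a score of 3, and in the replicate lists it lies below them for scores under 0.5.

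The low end of the scores sat higher on X than on the arms. The lowest score of an X region was 0.071 in the combined list, against lowest scores of 0.00049 to 0.031 on the arms. The value below which 5% of the regions fell was 0.22 on X, against 0.16 to 0.18 on the arms, in the combined list. It was 0.36 on X, against 0.29 to 0.31, in replicate 1, and 0.36, against 0.30 to 0.31, in replicate 2. Scores under 0.25 were held by 86 X regions (7.43%) in the combined list, against 12.2% to 13.4% of the regions of the arms.

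At like widths, X medians lay above all 4 arms in each list for regions of up to 2000 bp. For regions of 1501 to 2000 bp the median score on X was 0.29 in the combined list, against 0.23 to 0.25 on the arms, 0.44 in replicate 1, against 0.37 to 0.39, and 0.43 in replicate 2, against 0.36 to 0.37. For regions of up to 1500 bp it was 0.35 in the combined list, against 0.28 to 0.30. In the class with the most X regions, 2001 to 2500 bp, the X median was 1.11 in the combined list, against 0.97 to 1.02 on the arms, and 1.28 in replicate 1, against 1.14 to 1.19. In replicate 2 it was 1.40, within the 1.20 to 1.40 of the arms. Wide regions did not follow the same order. Over 3000 bp the X median was 1.96 in the combined list, against 2.07 to 2.11 on the arms, and 2.19 in replicate 2, against 2.32 to 2.52, whereas in replicate 1 it was 2.06, within the 1.97 to 2.17 of the arms. The median over all X regions was 0.94 in the combined list, with quartiles of 0.38 and 1.88, against medians of 0.88 to 0.94 on the arms.

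**Figure D2:**
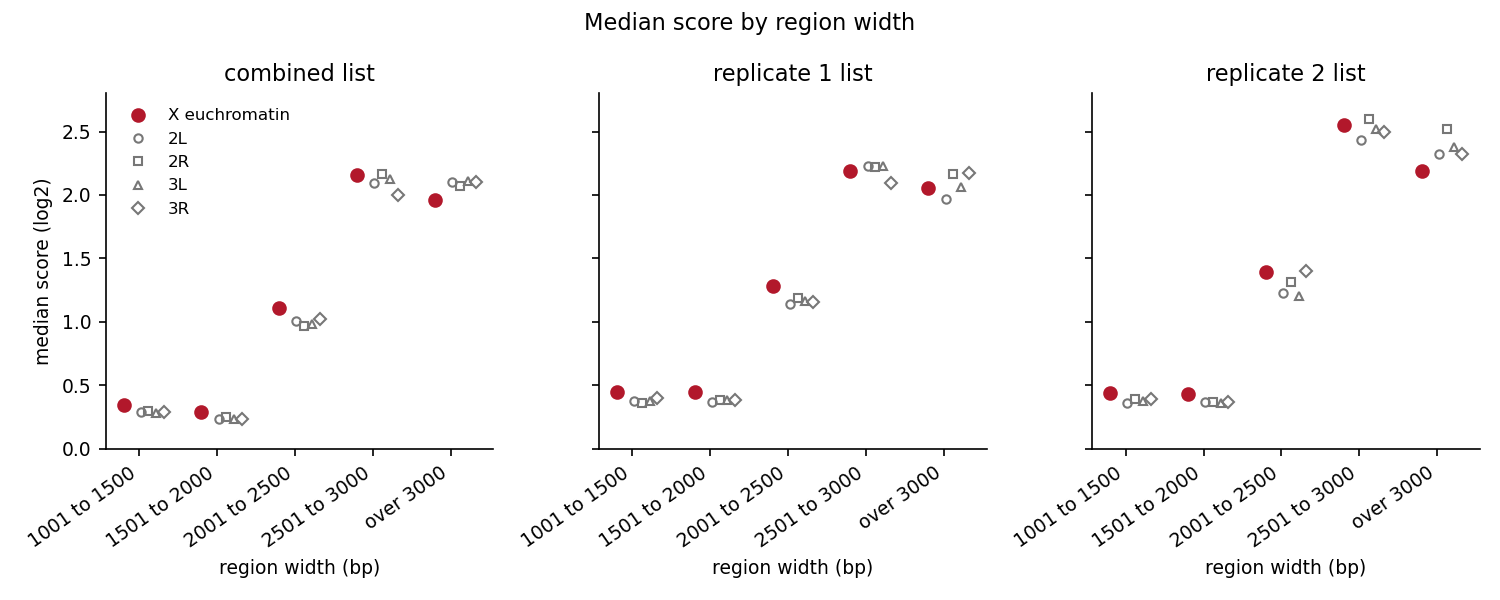
Median score (log2) of regions by width class in the 3 lists, with X euchromatin as filled red points and the 4 autosomal arms as open symbols. For widths up to 2000 bp X lies above all 4 arms in each list, and over 3000 bp it lies below them in the combined and replicate 2 lists.

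The strongest X regions found in both replicates had like scores in the 2 libraries. They were picked by combined score and by presence in both lists, which by itself favours high scores in both. The best-scoring one lay at 18131160 to 18134712, with a combined score of 4.08, from 4.11 in replicate 1 and 4.08 in replicate 2. The next, at 1208170 to 1212674, scored 4.03, from 4.27 and 4.25. These were the 2 of 1158 X regions with a combined score over 4. On the 4 arms together 12 of 4421 regions scored over 4, from 0 to 5 on single arms. The region at 3462922 to 3468134 scored 3.88, from 3.89 in replicate 1 and 3.99 in replicate 2. That at 18664860 to 18668512 scored 3.87, from 4.10 and 3.96.

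Strong regions recurred within a short stretch near 18 Mb. Besides the 2 regions above that start there, the one at 18256574 to 18261556 scored 3.78, from 3.83 in replicate 1 and 3.79 in replicate 2. Another, at 18212298 to 18218388, scored 3.69, from 3.78 and 3.81. Thus 4 of the 10 best-scoring X regions fell between 18 and 19 Mb. The other 4 of the 10 lay at 4131568 to 4136084 (combined score 3.76), 7134938 to 7137598 (3.75), 14664330 to 14667418 (3.74) and 3236710 to 3239348 (3.69). Their replicate scores ran from 3.52 to 3.93, and the furthest apart were 3.93 in replicate 2 and 3.52 in replicate 1, at the last of them.

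Widths of X regions had a median of 2230 bp, with quartiles of 1871 and 2684 bp, against medians of 2231 to 2263 bp on the arms. Wider regions scored higher: across the 1158 regions Spearman's rho of score and width was 0.820 and Pearson's r 0.632. This describes regions of the same libraries, and a region's width and score both came from the same calling. Wider than 5000 bp were 26 X regions (2.25%), against 128 of 4421 (2.90%) on the 4 arms together, with X scores from 0.70 to 3.88 and a median of 2.60. Of these, 17 matched 1 region in each replicate list and 9 overlapped more than 1 in at least 1 list.

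The 3 widest X regions each overlapped more than 1 region in each replicate list, called parts here. The widest, 10259 bp at 14847394 to 14857652, scored 2.98. Its parts in replicate 1 scored 2.90 and 3.77, and its parts in replicate 2 scored 2.65 and 3.27. The region at 18240982 to 18249776 (8795 bp) scored 1.78. Its parts in replicate 1 scored 1.21 and 2.29, and those of replicate 2 scored 1.52 and 2.22. The third, at 10814612 to 10822416 (7805 bp), scored 2.61. Replicate 1 listed it as 3 regions, with 3.68, 1.18 and 0.54, and replicate 2 as 2 regions, with 3.35 and 2.26. In each case the stronger part of either replicate scored higher than the combined region. This was not limited to wide regions with parts: the region at 1208170 to 1212674, with 1 partner in each list, scored 4.03, from 4.27 and 4.25. Such differences between lists can include a shift of scale.

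Presence in the replicates followed the score. The combined list covers the same 2 ChIP samples, so its score and presence in the replicate lists are not independent. Of the 1158 X regions, 835 (72.1%, 95% exact interval 69.4 to 74.7) overlapped a region of both replicates by at least 1 bp, against 73.5% of the whole combined list and 71.8% to 76.1% on the arms. A further 103 (8.89%) overlapped replicate 1 alone, against 9.59% on the 4 arms together, and 46 (3.97%) replicate 2 alone, against 4.07%. In neither replicate were 174 (15.0%, 13.0 to 17.2), against 12.9% of the whole list and 10.4% to 13.3% on the arms. Seen from the replicates, 848 of 957 X regions of replicate 1 (88.6%) had a partner in replicate 2, against 87.7% of that whole list. In replicate 2, 844 of 897 (94.1%) had a partner in replicate 1, the same as the 94.1% of its whole list.

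With the X regions cut into 10 equal parts by score, 16.4% of the lowest part and 19.0% of the next were found in both replicates. The share was 30.2% in part 3 and 62.1% in part 4, which ended at a score of 0.61. In parts 5 and 6 it was 97.4% and 96.6%, and in parts 7 to 10, from a score of 1.31 upward, every region was found in both. Absence from a replicate was thus seen on X at scores below 1.31. At like scores the X share lay below those of the arms in the lower classes, which was not tested. Below a score of 0.5, 26.6% of X regions were found in both, against 29.0% to 34.2% on the arms, and from 0.5 to 1 it was 92.9%, against 95.5% to 97.2%. From 1 to 2 the share was 99.0% on X, within the 98.2% to 100% of the arms.

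**Figure D3:**
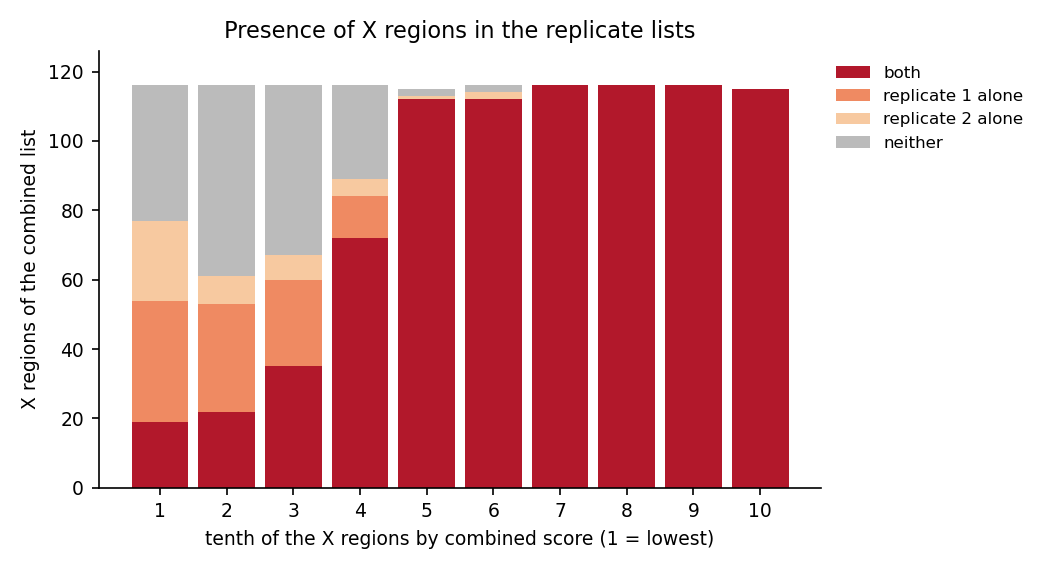
Number of X regions of the combined list found in both, 1 or neither replicate list (stacked bars), for 10 equal parts of the X regions by combined score. Regions found in both make up 16.4% of the lowest part and all of parts 7 to 10.

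Regions found in neither replicate were narrow. Their median width was 1249 bp, against 2413 bp for X regions found in both. The narrowest region of the whole replicate lists measured 1301 bp in replicate 1 and 1303 bp in replicate 2, whereas the combined list went down to 1001 bp. On X, 125 regions (10.8%) were narrower than 1301 bp, against 7.79% to 9.04% on the arms, and 104 of the 174 X regions found in neither replicate were among them. Of the 125, 1 was found in both. The X regions found in neither had a median score of 0.34, against 0.28 to 0.29 on the arms, and those with a partner in replicate 1 alone 0.31, against 0.24 to 0.26. In the replicate lists, the X regions without a partner in the other list had medians of 0.48 in replicate 1, against 0.39 to 0.40 on the arms, and 0.46 in replicate 2, against 0.36 to 0.43. Those with a partner in replicate 2 alone did not stand above the arms, with 0.28 on X, within 0.25 to 0.28. When regions narrower than 1301 bp were left out, 80.7% of the X regions were found in both replicates.

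The best-scoring X region with no partner lay at 2202728 to 2203874, with 1.24, and the next, at 2210390 to 2211550 with 1.08, lay less than 10 kb away. The third, at 4625698 to 4626758, scored 0.82. Regions with a partner in replicate 2 alone reached 1.03 in the combined list at 14778550 to 14780714, where replicate 2 scored 1.61, and 1.00 at 15011050 to 15013172, where replicate 2 scored 1.81. A further one, at 6970738 to 6972912, scored 0.74, with 1.32 in replicate 2. With a partner in replicate 1 alone the scores were lower. The highest were 0.54 at 965722 to 967878, 0.53 at 1578918 to 1581562 and 0.50 at 17591150 to 17593648, with 0.76, 0.75 and 0.65 in replicate 1. Of the 109 X regions of replicate 1 without a partner in replicate 2, 0 scored over 1, and of the 53 of replicate 2 without one in replicate 1, 4 did. On the 4 arms together these counts were 0 of 468 and 12 of 195.

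Scores of paired X regions were close in the 2 libraries. Regions with a single partner in the other list whose midpoints lay at most 250 bp away formed 772 X pairs, and the median offset of their midpoints was 44 bp. The score in replicate 2 minus that in replicate 1 had a median of 0.03 (SD 0.36), and 682 pairs (88.3%) lay within 0.5 of each other. Pearson's r across these regions was 0.917 and Spearman's rho 0.910. The spread was one-sided at its far end. In 26 pairs (3.37%, 95% exact interval 2.21 to 4.90) replicate 2 scored over 1 higher, against 4.37% of all pairs of the series and 3.90% to 5.38% on the arms. In 0 pairs did replicate 1 score over 1 higher, as in the whole series (0%).

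In the 26 pairs, which the difference itself picked out, scores ran from 1.84 to 3.62 in replicate 2, with a median of 2.49, and from 0.23 to 1.99 in replicate 1, with a median of 1.21. The other 746 pairs had medians of 1.50 in replicate 2 and 1.44 in replicate 1. The widest gap lay at 19231061 to 19233043, where replicate 2 scored 2.14, against 0.25 in replicate 1. At 10087162 to 10089012 replicate 2 scored 2.04, against 0.23, and at 13027797 to 13030518 it scored 3.51, against 1.76. Positions are those of the replicate 1 region. In the opposite direction no pair was as far apart. The furthest lay at 20222420 to 20224563, where replicate 2 scored 0.28, against 0.86 in replicate 1. The next were at 8815217 to 8817932 (1.39 in replicate 2, against 1.95) and at 6924562 to 6926801 (0.84, against 1.39). Of the 50 X pairs with a mean score over 3, 0 differed by over 1, against 3 of 192 (1.56%) on the 4 arms together. The lists may have been scaled separately, and the part of that scaling in these differences was not tested.

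**Figure D4:**
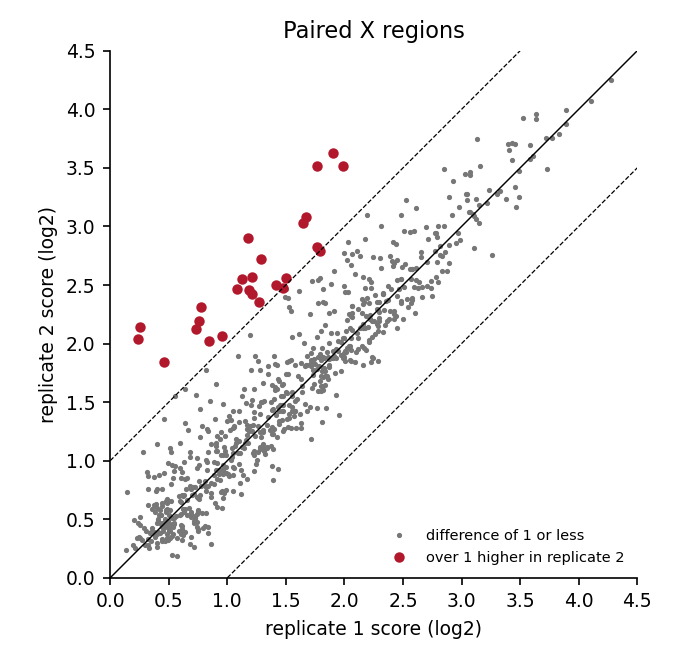
Scores (log2) of the 772 paired X regions, replicate 1 on the horizontal and replicate 2 on the vertical axis. The solid line marks equal scores and dashed lines a difference of 1, and the 26 red points score over 1 higher in replicate 2, with none beyond the opposite line.

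Neighbouring X regions lay a median of 11.2 kb apart from midpoint to midpoint, with quartiles of 5.74 and 22.5 kb, against medians of 11.4 to 13.6 kb on the arms. The X median was 13.6 kb in the replicate 1 list, within the 12.9 to 15.1 kb of the arms, and 15.0 kb in the replicate 2 list, within their 14.4 to 15.7 kb. Long distances were fewer on X. Distances over 50 kb made up 68 of 1156 (5.88%) on X, against 7.21% to 9.40% on the arms. In replicate 1 they made up 8.59%, against 10.2% to 13.0%, and in replicate 2 9.94%, against 12.0% to 14.1%.

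Relative to their mean, counts in 100 kb windows varied less on X than on the arms. Their variance alone was 6.93 on X in the combined list, within the 6.03 to 7.30 of the arms. The variance of these counts over their mean was 1.21 on X (202 windows, mean 5.72 regions), against 1.31 to 1.53 on the arms. It was 1.15 in replicate 1, against 1.33 to 1.54, and 1.12 in replicate 2, against 1.24 to 1.45. X was the lowest of the 5 in all 3 lists. Among regions with a combined score over 1 this order was lost: the ratio was 1.25 on X, within the 1.14 to 1.33 of the arms. Windows without any region numbered 2 of 202 on X in the combined list, and the fullest held 13. This measure was added after the data were seen.

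**Figure D5:**
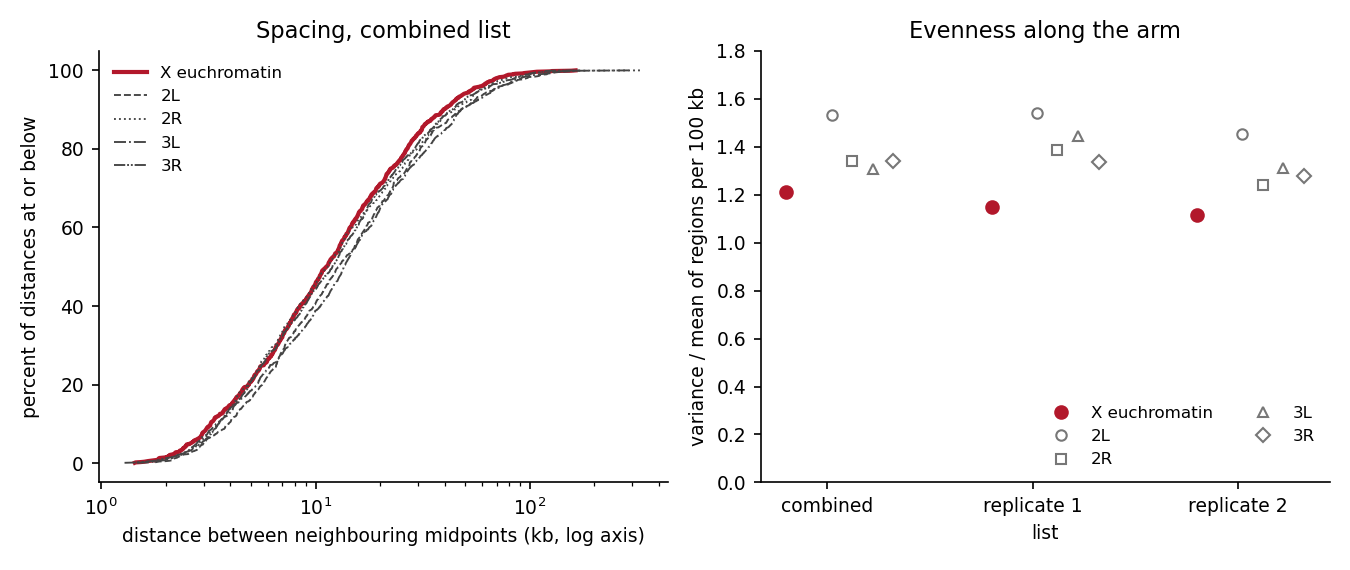
Left, cumulative share of midpoint distances between neighbouring regions (kb, log axis) for X euchromatin (red) and the 4 autosomal arms (dashed or dotted) in the combined list. Right, variance over mean of region counts per 100 kb in the 3 lists, where X (red) lies between 1.12 and 1.21, below each arm in its list.

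The longest distances between neighbours were 163 kb (region ends at 4321652 and 4483610), 156 kb (4852052 and 5004380) and 127 kb (16972360 and 17097000). Neither replicate listed a region in these stretches. The first was bounded by regions with scores of 0.14 and 0.25 that neither replicate listed, whereas the second was bounded by scores of 3.68 and 1.16, both found in both replicates. The shortest midpoint distances were 1433 bp (between 1689956 and 1692756), 1444 bp (between 14085164 and 14087976) and 1528 bp (between 15075630 and 15078434). All 6 of these regions scored under 0.5, and 0 of them were found in both replicates.

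Score did not change steadily with the distance to the nearest region. Another X region lay within 1 kb, edge to edge, of 216 X regions (18.7%), and 80 (6.91%) had none within 20 kb. On the 4 arms together 17.2% had a neighbour within 1 kb and 10.0% had none within 20 kb. Median scores on X were 0.63 for regions with a neighbour within 1 kb, 1.08 at 1 to 5 kb, 1.00 at 5 to 20 kb and 0.81 beyond 20 kb. The same medians on the 4 arms together were 0.88, 0.96, 0.97 and 0.70. Found in both replicates were 66.2% of the X regions in the first group (95% exact interval 59.5 to 72.5), 72.4% and 73.8% in the next groups and 77.5% (66.8 to 86.1) in the last. On the arms the shares were 71.0%, 76.2%, 75.5% and 69.9%, so the order at the far end was not the same. Across the 1158 regions Spearman's rho of score and distance to the nearest neighbour was 0.033. Scores of adjacent regions had a rho of 0.0099 over 1156 neighbours, which is a description of regions that share their libraries.

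Along X the complete 1 Mb windows, 19 in number, held 57.5 ± 10.5 combined regions (SD over windows), from 40 between 15 and 16 Mb to 78 between 18 and 19 Mb. The fullest window and the window from 1 to 2 Mb, with 76 regions, both held more regions in neither replicate and more scores over 3 than the rest of X, but their shares found in both replicates differed. Between 18 and 19 Mb, 55 of 78 regions (70.5%) were found in both replicates, close to the 72.2% of the rest of the X regions. There 17 (21.8%) were found in neither, against 14.5% of the rest, and 10 (12.8%) scored over 3, against 3.61%. The window from 2 to 3 Mb, with 59 regions, held a like share in neither, 13 (22.0%). Between 1 and 2 Mb, 35 of 76 (46.1%) were found in both, the lowest share of the 19 windows, against 73.9% of the rest. There 47 of the 76 (61.8%) scored under 0.5, against 34.3% of the rest. A partner in replicate 1 alone was held by 18 of the 76, against 85 of the 1082 in the rest. For replicate 2 alone the counts were 3 and 43. In neither replicate were 20 (26.3%), against 14.2% of the rest, and 8 (10.5%) scored over 3, against 3.79%. The median score of this window was 0.42 in the combined list, the lowest of the 19, and 0.75 in replicate 1, close to the 0.75 between 16 and 17 Mb and the 0.76 between 17 and 18 Mb. In replicate 2, which listed 39 regions there, it was 1.29, and the lowest median of that list was 0.88, between 6 and 7 Mb. These windows were picked out after their values were seen. With the 1 to 2 Mb window left out, both replicates held 73.9% of the X regions and neither held 14.2%.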

How the data were processed

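Su(Hw) ChIP and input DNA of Oregon-R embryos were sequenced. The submitters' processing notes name Bowtie 0.12.7. The deposited lists give regions per replicate and for the series as a whole, in FlyBase release 5, per the file headers. Sources used here do not name the region caller, its threshold, the scaling of ChIP to input or the zero point of the scores. The score is the authors' deposited enrichment on a log2 scale, read from the values: 44, 93 and 73 pairs of distinct scores in the combined, replicate 1 and replicate 2 lists differed by exactly 1 (tolerance 1e-11).

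Depleted regions were left out. An overlap of 1 bp or more counted as shared, and scores were paired where each region had 1 partner and midpoints lay within 250 bp. Distances between neighbours did not span the excluded stretch. Intervals are exact (binomial and Poisson, 95%), no p-value was computed, and depth is unknown. The arithmetic used Python 3.11.15, numpy 2.4.6, pandas 2.3.3 and scipy 1.17.1, with figures by matplotlib 3.10.9, and the overlap and spacing steps were tested on simulated data.

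Named regions were the 10 best-scoring found in both replicates, the 3 widest, the 3 longest and 3 shortest distances, the 3 best-scoring with a partner in replicate 1 alone, in replicate 2 alone and in neither, the 3 largest score differences each way, and those at the edges. The members and measures were chosen with earlier results of these data known. Genes and sequences at these positions were not analysed here, since the gene table at hand follows Release 6 and positions were not converted.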

Additional observations from a re-analysis of the deposited data

How the results depend on the processing

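The share of X regions found in both replicates was 72.1%. It was 64.0% when midpoints had to lie 250 bp apart or less, and 80.7% in regions at least 1301 bp wide. With 1 replicate left out it ran from 76.1% to 81.0%, by construction. It was 70.7% to 73.9% under the other alternatives. X density was 47.1 and 44.1 per Mb in the lists of replicates 1 and 2, 41.1 for regions found in both and 29.0 for the better-scoring 50%, which count fewer regions. The median score was 1.23 and 1.46 in the replicate lists and 1.48 for regions found in both, the median width 2263, 2282 and 2413 bp, and the median spacing 13.6, 15.0 and 15.7 kb (13599.5, 14981.5 and 15678 bp). With the edge at 1 or 3 Mb, these values and the share moved by less than the replicates' spread or the share's interval. The variance over mean of X counts was 1.19 with the edge at 1 Mb, 1.08 in 50 kb and 1.14 in 200 kb windows, 1.14 for regions found in both, 1.15 and 1.12 in the replicate lists, and below every arm in these. For scores over 1 it was 1.25, not below every arm. The coefficient of variation of the X spacing, 1.04, was also below the arms in each list (1.06 to 1.16 in the combined one), but not with the edge at 3 Mb, where it was 1.05 on X and 1.05 to 1.12 on the arms, nor for scores over 1, where it was 1.09 on X and 1.03 to 1.13 on the arms. The pairs over 1 higher in replicate 2 numbered 24 to 34 under the alternatives, with 0 over 1 higher in replicate 1 in each. Alternatives on width, the 1 to 2 Mb window and the variance were chosen after seeing the data. No paired analysis was possible because the inputs that share the ChIP numbers have no list of their own. Depth is unknown, and its part in which weak regions were listed was not tested.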

Other observations

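Runs of close X regions were short. With neighbours joined when less than 1 kb lay between their edges, 942 regions stood alone, 81 runs held 2 regions, 15 held 3, and 1 each held 4 and 5. The run of 5 spanned 16343 bp at 4579600 to 4595942, with scores from 0.35 to 2.31 and 4 regions found in both replicates. The run of 4 spanned 9925 bp at 13238258 to 13248182, with scores from 0.45 to 0.99 and 3 found in both. In the run at 18926484 to 18935670 all 3 regions were found in both replicates and their scores lay between 1.70 and 2.18. In that at 18664860 to 18671594, which starts with one of the strongest X regions (3.87), 1 of 3 was found in both.

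The fullest stretches of 50 kb held 10 X regions each, at 2639514 to 2685816 (6 found in both, median score 1.02) and at 4579600 to 4626758 (8 found in both, median 1.12). Stretches of 9 regions lay at 743064 to 792914 (7 found in both, median 0.75) and at 12609102 to 12652494 (6 found in both, median 0.49). A stretch at 1264732 to 1312276 held 8 regions with a median score of 0.38 and a highest score of 0.48, of which 2 were found in both replicates. These stretches were chosen after their values were seen.

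Of the 26 pairs that scored over 1 higher in replicate 2, 5 lay between 16 and 17 Mb, where there were 31 pairs (16.1%). Every other complete window of 1 Mb held at most 2. The median difference in that window, replicate 2 minus replicate 1, was 0.23, the highest of the complete windows. The window was picked out after its values were seen, and nothing was tested on it.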
